A study of Rattus norvegicus with 3 samples.

Results

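The regions described here are the HILS1-bound peaks that lie on an L1_Rat1 repeat inside an intron of an annotated rat transcript. They were chosen from the annotation of the peak list alone, as the peaks whose repeat was named exactly L1_Rat1 and whose annotation was an intron, and no enrichment value entered the choice. There were 1247 of them among 32731 peaks, which is 3.81% of the list (95% Wilson interval 3.61 to 4.02%). They made up 27.4% of the 4546 intronic peaks and 16.2% of the 7686 L1_Rat1 peaks. The other 6439 L1_Rat1 peaks were all intergenic. For some peaks on an exon, a 3′ UTR or a transcript end, the field that names the repeat held that label instead. The absence of L1_Rat1 peaks from such places may therefore come from the labelling and was not tested.

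HILS1 is a linker histone made only in spermatids, the haploid male germ cells that reshape and condense their nuclei after meiosis. Chromatin immunoprecipitation followed by sequencing (ChIP-seq) with an anti-HILS1 antibody was done on nuclei of elongating/condensing spermatids from the testes of rats aged 50 to 60 days. The labels gave 2 HILS1 ChIP samples and 1 input sample, DNA of the same sonicated chromatin taken without the antibody, and named neither a strain nor a treatment. The deposited data were 1 list of peaks found in both ChIP samples, with 1 fold enrichment, 1 score and 1 false discovery rate (FDR) for each peak and no value for either replicate. The spread between replicates and the read depth were therefore unknown, every comparison was a description without a p-value, and the intervals cover counting error over peaks only. A peak list holds no expression values, so the labelled cell type could not be checked against marker genes.

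LINE-1 (L1) elements are the most abundant autonomous retrotransposons of mammalian genomes. A complete element is several kilobases long and codes for an RNA-binding protein and for a protein with endonuclease and reverse transcriptase activity, although most copies are truncated at the 5′ end and no longer move. Copies that landed in introns are transcribed as part of the host gene's precursor RNA and removed by splicing, so an intronic L1 can persist where an exonic one would disrupt the protein. L1_Rat1 and L1_Rn are the names that the repeat annotation gives to groups of rat L1 sequences.

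One of the regions had been chosen by the study for ChIP-qPCR, as 1 of 10 regions tested in that way. It lay in intron 5 of 6 of Fhit, which codes for a diadenosine triphosphate hydrolase, at chr15:20799037-20802191 in rn5, the build of the list. The primer sequence is shown because this is the only region of the set with a qPCR measurement. The primer table printed the same 20 bases for the forward and for the reverse primer of this region, so only 1 of the pair is known from it.
Fhit intron 5 primer: aggcacatgacaggtcttcc
The listed amplicon was 192 bp long. The peak itself was 3154 bp long with a fold enrichment of 42.6 and an FDR of 8.39%.

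Fhit held 3 further intronic L1_Rat1 peaks, and the qPCR region was the most enriched and the longest of the 4. The peak in intron 1 had a fold of 23.15 and a length of 536 bp. The peak in intron 4 had a fold of 32.4 and a length of 819 bp. A further peak in intron 5 had a fold of 13.9 and a length of 604 bp. The 4 peaks of this gene thus ran from well below to well above the median of the whole set. The nearest start site to the qPCR region was that of another gene although the region lay inside Fhit, at a signed distance of -850131 bp, where the minus sign means that the peak lies upstream of that site.

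HILS1 enrichment on intronic L1_Rat1 was close to that on intergenic L1_Rat1 and lower than that on intronic L1_Rn. Fold enrichment is the linear ratio of ChIP signal over background given by the peak caller, and all folds in the set lay within 0.01 of a whole multiple of 1 step of 0.926. The 1247 intronic L1_Rat1 peaks had folds from 7.41 to 48.2, with a median of 25.0 (95% interval of the median 24.1 to 25.0), and the middle 50% lay between 19.4 and 28.7. The 6439 intergenic L1_Rat1 peaks had a median fold of 24.1, which is 1 step lower. On the log2 scale, the median was 4.64 for intronic and 4.59 for intergenic L1_Rat1, a difference of 0.055 with an interval from -0.023 to 0.055. The distributions overlapped almost completely, and 87.6% of intronic and 86.8% of intergenic L1_Rat1 peaks had a fold of at least 16.

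The 1985 intronic L1_Rn peaks had a median fold of 31.5. The log2 median of the intronic L1_Rat1 peaks was lower than theirs by a difference of -0.33 (interval -0.39 to -0.29). The middle 50% of the intronic L1_Rn peaks ran from 25.9 to 36.1, and overlapped the L1_Rat1 range. Intronic peaks outside LINE repeats had a log2 median of 4.21, below both L1 groups.

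Intronic L1_Rat1 peaks were also as long as intergenic ones and shorter than intronic L1_Rn peaks. Their median length was 720 bp (692 to 735 bp), against 715 bp for intergenic L1_Rat1 and 944 bp for intronic L1_Rn. The difference from intergenic L1_Rat1 was 5 bp (-24.1 to 22.5 bp), and the difference from intronic L1_Rn was -224 bp (-268 to -193 bp). Peaks of at least 1500 bp were 8.82% of intronic L1_Rat1, 7.98% of intergenic L1_Rat1 and 27.2% of intronic L1_Rn peaks. An FDR above 10% was listed for 12.1%, 12.8% and 3.38% of these groups, in the same order. The median FDR went the other way, at 7.42% for intronic L1_Rat1 and 7.73% for intronic L1_Rn, a difference of -0.31 percentage points (-0.44 to -0.19). Between these groups a lower median FDR did not go with a higher score. The median score was 574.6 for intronic L1_Rat1 and 1484 for intronic L1_Rn. Scores of at least 3100 were held by 2.81% and 24.4% of them, and the upper quartile of FDR was 8.48% and 9.45%.

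**Figure D1:**
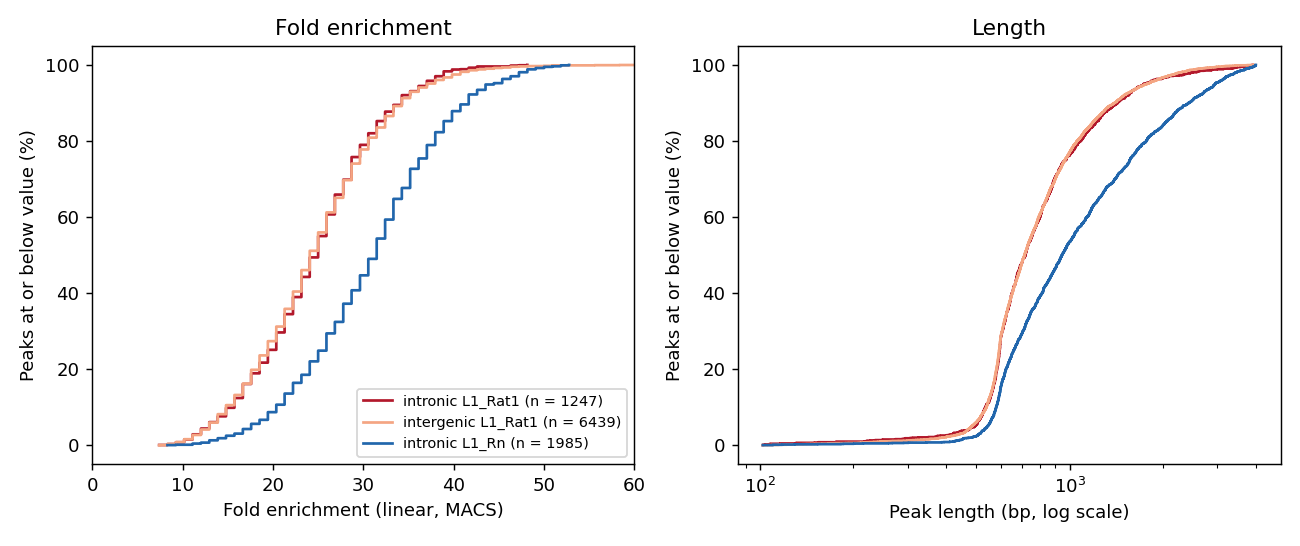
Cumulative share of peaks (percent) against fold enrichment (left, linear axis) and peak length in bp (right, log axis) for 1247 intronic L1_Rat1, 6439 intergenic L1_Rat1 and 1985 intronic L1_Rn peaks. The 2 L1_Rat1 curves lie on each other, with median folds of 25.0 and 24.1, while the L1_Rn curve is shifted to higher folds (median 31.5) and greater lengths (median 944 bp).

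Longer peaks carried higher folds, and the gap between L1_Rat1 and L1_Rn was present at each length. Among intronic L1_Rat1 peaks, the log2 median was 4.14 below 500 bp (n = 67), 4.53 from 600 to 800 bp (n = 389) and 4.93 at 1500 bp or more (n = 110). The intronic L1_Rn medians in the same length classes were 4.67, 4.80 and 5.14. In the shortest class, the intervals of the 2 repeats met at 4.28, and in the 5 longer classes they did not overlap. Over the 1247 peaks, Spearman's rho between fold and length was 0.401 and Pearson's r between log2 fold and log10 length was 0.423. These points are not independent, since segments of a called peak share its fold. With only the longest segment of each of the 967 called peaks kept, rho was 0.537 and r was 0.539.

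**Figure D2:**
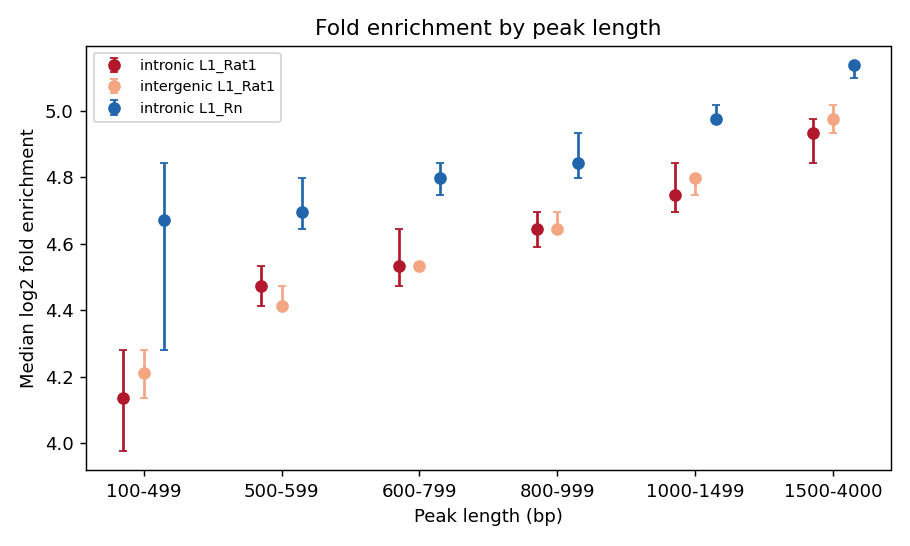
Median log2 fold enrichment by class of peak length in bp, with 95% order-statistic intervals as bars, for intronic L1_Rat1, intergenic L1_Rat1 and intronic L1_Rn peaks. Medians of intronic L1_Rat1 rise from 4.14 in the shortest to 4.93 in the longest class and lie below those of intronic L1_Rn in every class.

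The peaks often came in short runs, with several pieces close together. The list holds some called peaks as several segments, and 291 of the 1247 peaks were later segments of a called peak (23.3%, against 22.0% of intergenic L1_Rat1 and 36.3% of intronic L1_Rn). The 751 peaks that were the only segment of their called peak had a log2 median fold of 4.47. Those from called peaks with 2 segments had 4.70 (n = 302), those with 3 segments 4.84 (n = 132) and those with 4 or more 5.02 (n = 62). Enrichment was thus higher where the called region was cut into more pieces. Another 18 segments of the same called peaks lay outside the set, 9 of them on L1_Rn, 8 on the satellite repeat RatSatRep2 and 1 on RNHAL1.

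The median gap to the nearest other peak of any kind was 936 bp, and 818 of the 1247 peaks (65.6%) had another peak within 6 kb. In 771 of these 818 cases (94.3%) the nearest peak was also on L1_Rat1, in 25 it was on L1_Rn and in 11 on RatSatRep2. The 429 peaks with no neighbour within 6 kb had a log2 median fold of 4.47 and a median length of 692 bp, and those with a neighbour had 4.70 and 733.5 bp. Isolated peaks were thus weaker and shorter at the median. A neighbour could be another segment of the same called peak, so this contrast is not separate from that by number of segments.

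Joining intronic L1_Rat1 peaks less than 6000 bp apart gave 759 runs. Of these, 294 (38.7%) held at least 2 peaks, and together they contained 782 of the 1247 peaks. Their median span was 3334.5 bp, with the middle 50% from 2190 to 4600 bp, and peaks covered a median of 72.1% of the span. Runs of intronic L1_Rn were longer and fuller, with a median span of 4675 bp and 86.1% covered. Within a run, adjacent peaks from different called peaks differed by a median of 0.39 in log2 fold (n = 208), and successive runs along a chromosome differed by 0.38 (n = 738). Peaks near each other were therefore no more alike in fold than peaks of separate runs, apart from segments that share 1 value by construction.

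The longest run spanned 14557 bp in intron 2 of Frmd3, which codes for a FERM domain protein, a name chosen after its values were seen. It held 6 peaks of 504 to 809 bp. Their folds were 19.4, 19.4, 23.15, 23.15, 10.2 and 24.1 in order along the chromosome. The fifth peak was the weakest, at less than the fold of any of its neighbours.

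The 1247 peaks lay in 683 introns of 543 transcripts of 542 genes, and a large minority of genes held only 1. There were 261 genes with 1 peak (48.2%), 225 with 2 to 4, and 56 with 5 or more. These 56 genes held 378 of the peaks, and the 10 genes with most held 99. Of the 543 transcripts, 227 also carried an intronic L1_Rn peak, which is 41.8% of the L1_Rat1 hosts and 34.2% of the L1_Rn hosts. At the level of single introns, 143 were shared, or 20.9% and 15.6%. How many introns would be shared by placement alone was not tested.

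Galntl6 held the most intronic L1_Rat1 peaks. This gene, on chromosome 16 and of the family of enzymes that start mucin-type O-glycosylation, held 18 peaks in 10 runs over 1054 kb, in introns 1, 4, 6 and 8 of 11. In intron 1 the folds were 19.4, 37.0, 14.8, 35.2 and 14.8. Intron 4 had folds of 34.3, 34.3, 18.5, 20.4, 22.2 and 16.7. Intron 6 had folds of 27.8, 27.8, 26.9, 26.9 and 32.4, and intron 8 had 20.4 and 23.15. In intron 1 high and low folds alternated, in intron 4 only the first 2 segments, which belong to 1 called peak, were above the median of the set, and all 5 peaks of intron 6 were above it. The gene also held 18 intronic L1_Rn peaks among its 41 intronic peaks.

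Kcnh8, Prkg1 and Tgfb2 held 10 peaks each, and they differed in how the peaks were placed. Kcnh8 on chromosome 9, a voltage-gated potassium channel, had its 10 peaks in 6 runs of 5 introns, with folds from 10.2 to 38.0 and a median of 22.2. Prkg1 on chromosome 1, the cGMP-dependent protein kinase, had 5 of its 10 peaks in intron 3 as segments of a single called peak with a fold of 38.9. Its other 5 peaks, in introns 1, 2, 4 and 5, had folds from 20.4 to 27.8. The highest value in Prkg1 is thus 1 measurement printed 5 times.

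Tgfb2 on chromosome 13, which codes for a secreted growth factor of the transforming growth factor beta family, had all 10 peaks in intron 2 of 7. They formed 2 blocks of 5 segments. The first block began at position 109725067 and had a fold of 32.4 and an FDR of 8.66%, with segments of 593, 664, 2874, 617 and 720 bp. The other block ended at position 109749629 and had a fold of 31.5 and an FDR of 7.51%, with segments of 644, 1044, 554, 1590 and 626 bp. Both blocks lay within 24.6 kb, at almost the same fold, and the nearest start site to every segment was that of Tgfb2, between 42260 and 66213 bp away.

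**Figure D3:**
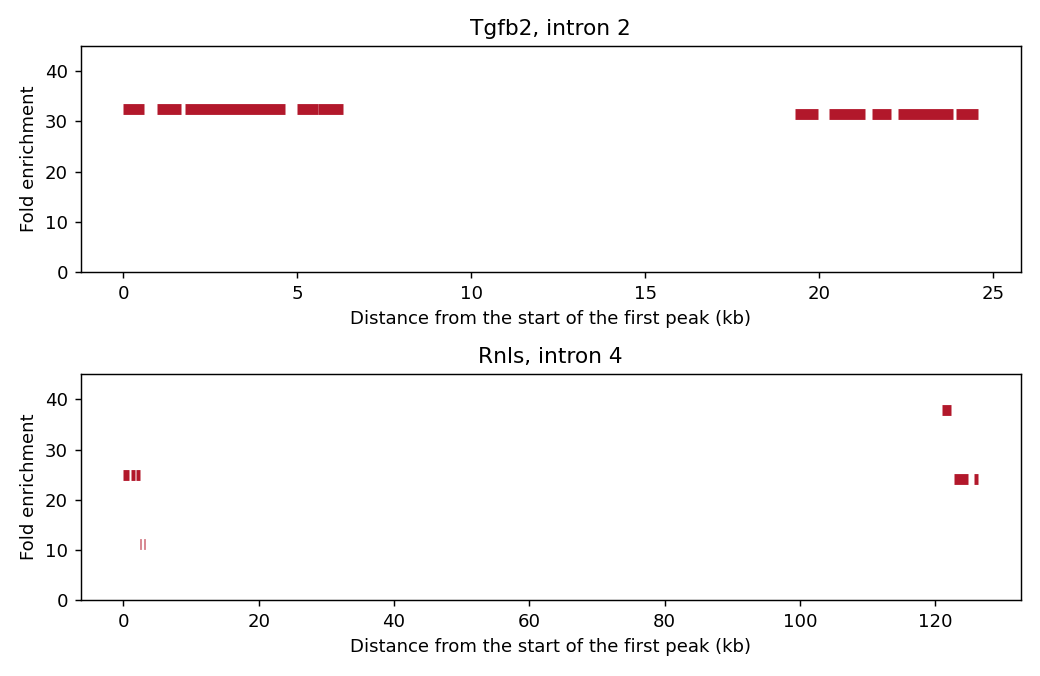
Intronic L1_Rat1 peaks in Tgfb2 intron 2 (top) and Rnls intron 4 (bottom), drawn as bars from start to end against distance from the start of the first peak (kb), at their fold enrichment. The Tgfb2 peaks form 2 blocks with folds of 32.4 and 31.5, while in Rnls the folds range from 11.1 to 38.0 within 2 runs.

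Cntn4, Dgkb and Dlg2 held 9 peaks each. In Cntn4 on chromosome 4, a contactin with a role in neuronal adhesion, folds ran from 20.4 to 28.7 in introns 1, 3 and 14. In Dgkb on chromosome 6, a diacylglycerol kinase, 6 of the 9 peaks lay in intron 22 of 26, with folds from 24.1 to 27.8, and 3 lay in intron 1. In Dlg2 on chromosome 1, a synaptic scaffold protein, 9 separate called peaks had folds from 13.9 to 33.3, and 7 of them lay in intron 2. Dgkb was the most even of these genes and Dlg2 the most spread.

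Of 9 genes with 8 peaks, the rule for naming takes 3. Dis3l2 on chromosome 9, an exoribonuclease, had folds from 12.0 to 36.1 over 5 introns. Dpyd on chromosome 2, the first enzyme of pyrimidine breakdown, had folds from 12.0 to 38.9 over 4 introns and a median of 18.5, the lowest among the 10 named hosts. Erbb4 on chromosome 9, a receptor tyrosine kinase for neuregulins, had folds from 14.8 to 35.2 over 4 introns. All 3 genes held peaks on both sides of the median of the set.

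**Figure D4:**
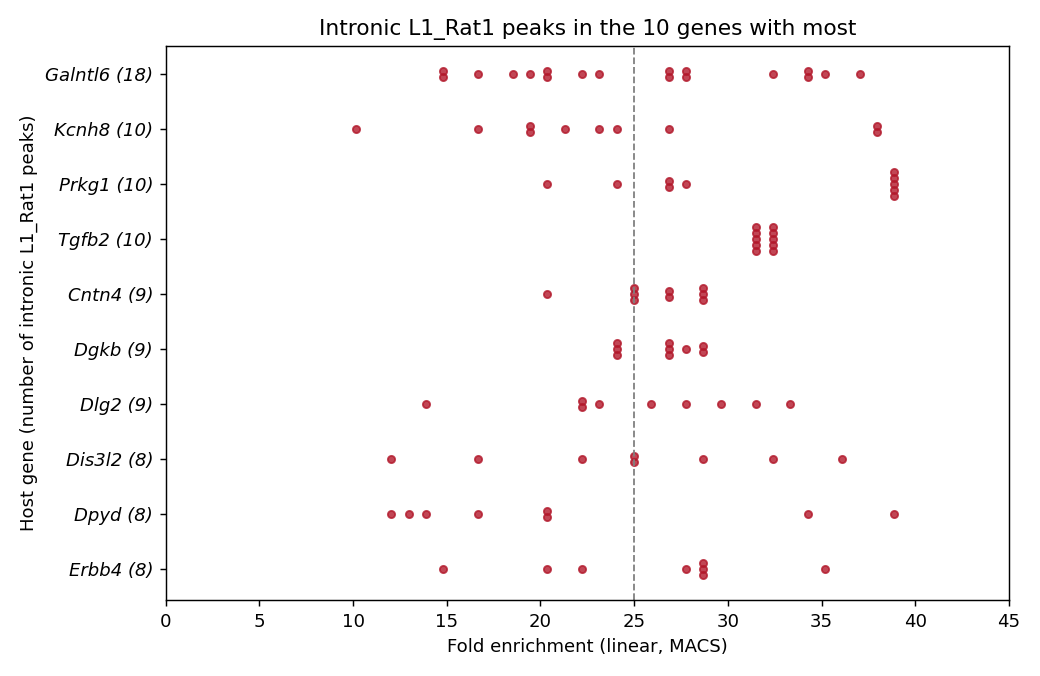
Fold enrichment of every intronic L1_Rat1 peak in the 10 genes with most (ties by symbol), with the number of peaks in parentheses and the median of all 1247 peaks (25.0) as a dashed line. Points stacked at 1 value are mostly segments of a called peak, which share its fold, as in Tgfb2 and Prkg1. Most genes hold peaks on both sides of the line.

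Among single introns, Tgfb2 intron 2 was followed by intron 33 of Muc19 and intron 4 of Rnls with 8 peaks each. Rnls on chromosome 1 codes for renalase, a flavoprotein. Its peaks lay in 2 runs within 126 kb, with folds of 25.0 (3 segments) and 11.1 (2 segments) in the first and 38.0 and 24.1 (2 segments) in the other. The weakest pieces, of 154 and 176 bp, directly followed the segments at 25.0. Intron 2 of Dlg2, intron 2 of Vrk2 and intron 7 of the transcript NM_001108436, which had no name in the tables, held 7 each. In Vrk2 on chromosome 14, a serine/threonine kinase, the folds were 28.7 (2 segments), 41.7 (3 segments) and 25.9 (2 segments). In NM_001108436 they ran from 12.0 to 25.0.

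The host of a peak is what the annotation of its centre says, and in a few cases that host was placed oddly. The 8 peaks assigned to intron 33 of Muc19, a gel-forming mucin gene on chromosome 7, spread over 2126 kb, and their nearest genes were Cntn1, Gxylt1, Prickle1 and Irak4 and never Muc19. The 2 peaks of intron 3 of Boll were also more than 1 Mb apart, over 2595 kb. Together these 2 introns held 10 of the 1247 peaks. The transcript of NEWGENE_1305281 was placed on both chromosome 1 and chromosome 2, with 1 peak in intron 1 at each place. For 9 peaks in 3 transcripts no gene name was found, and 3 peaks lay in non-coding transcripts.

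First introns held the most peaks of any intron number, at about the same share as for L1_Rn. Every host transcript has a first intron and fewer have each later one, so this count alone shows no preference. Of the 1247 peaks, 236 (18.9%, 16.8 to 21.2%) lay in the first intron, 193 (15.5%) in the second and 140 (11.2%) in the third, and 111 (8.90%) lay in the last. The share in the first intron was 21.1% (19.4 to 23.0%) for intronic L1_Rn, and the intervals overlapped. Counted once for each of the 1247 peaks, the host transcript had a median of 13 introns, so hosts with many peaks weigh more. Enrichment hardly varied with intron number, with log2 medians between 4.53 (introns 6 to 10) and 4.70 (introns after 20).

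The peaks lay far from start sites. The median distance to the nearest transcription start site was 74290 bp (65924 to 82065 bp). Only 61 peaks (4.89%) were within 10 kb, and 74 (5.93%) were more than 500 kb away. Intergenic L1_Rat1 peaks had a median distance of 184140 bp, and 22.5% of them were more than 500 kb away. Intronic L1_Rn peaks had a median of 90421 bp, a difference of -16131 bp (-28130 to -6384 bp). With 1 peak kept per host transcript the medians were 62115 and 60926 bp and the difference turned to 1189 bp (-10628 to 15358 bp), so the difference in distance between the 2 repeats rested on transcripts with many peaks.

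The nearest gene was the host gene for 896 peaks (71.9%, 69.3 to 74.3%). For 863 peaks the nearest start site was that of the host transcript itself, at a median of 66908 bp and always upstream of the peak. For the other 351 peaks the nearest gene did not bear the name of the host, and the nearest start site lay at a median of 88771 bp. They include the 9 peaks whose host had no gene name, for which it is unknown whether the nearest gene is the host. For the rest, a list of nearest genes would give a name other than that of the host. The log2 median fold was 4.70 within 10 kb of a start site (n = 61, interval 4.64 to 4.80) and 4.47 beyond 500 kb (n = 74, interval 4.35 to 4.64). In the 4 distance classes between, it was 4.59 or 4.64.

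**Figure D5:**
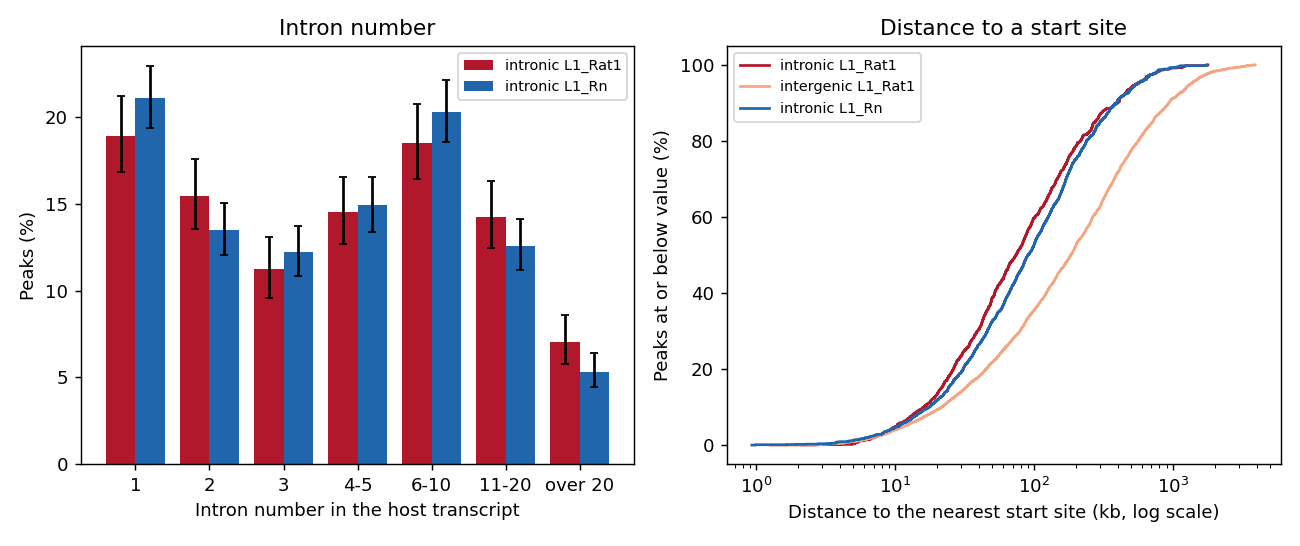
Left, share of peaks (percent) by intron number in the host transcript for intronic L1_Rat1 and intronic L1_Rn peaks, with 95% Wilson intervals. Right, cumulative share of peaks against distance to the nearest start site (kb, log axis) for intronic L1_Rat1, intergenic L1_Rat1 and intronic L1_Rn peaks. First introns held 18.9% of L1_Rat1 and 21.1% of L1_Rn peaks, and intergenic peaks lay farthest from start sites.

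The peaks nearest to a start site were not especially strong. In Hibch, an enzyme of valine breakdown, a peak 2104 bp from the start site in intron 1 had a fold of 16.7. In Galnt13, a relative of Galntl6, a peak at 2704 bp had a fold of 21.3. The next were Mageb16 on the X chromosome at 4926 bp (fold 18.5) and the zinc finger gene Zfp518a at 4956 bp (fold 26.9). A peak of 2498 bp assigned to intron 2 of the beta-globin gene Hbb-b1, with its centre 4133 bp from the start site, had a fold of 25.0. Globin genes are short, so the listed transcript of Hbb-b1 is another whose extent should be read with care. At the far end, peaks in introns 43 and 41 of Lrp1b, a giant endocytic receptor gene, lay 1786160 and 1699945 bp from the start site with folds of 28.7 and 20.4. Lrrc4c, which codes for a synaptic adhesion protein, had a peak at 1247238 bp (fold 13.0). Csmd1, a very large gene for a membrane protein with complement control domains, had peaks at 1215636 bp (fold 19.4) and 1215289 bp (fold 12.0).

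The most enriched peak of the set lay in intron 6 of 6 of Ldah, a lipid droplet hydrolase gene on chromosome 6. It was 818 bp long with a fold of 48.2 and an FDR of 7.21%. The next peak in the same intron, beginning less than 1 kb downstream, had a fold of 16.7, and 2 segments after it had 29.6. Patj on chromosome 5, a scaffold of the Crumbs cell polarity complex, had a single peak of 930 bp with a fold of 47.2. Cdh6 on chromosome 2, a cadherin, followed with 3 segments of a called peak in intron 2, of 2381, 574 and 951 bp, at a fold of 46.3. Cdh6 also had the lowest FDR of the set, 3.03%. Just below them stood the vomeronasal receptor gene Vom2r55, the qPCR region of Fhit and the ciliary transport gene Ift57, each at 42.6.

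The weakest peaks had high FDR values. Fam172a had a peak with a fold of 7.41 and an FDR of 23.2%. Xrcc4, a factor of DNA end joining, Spink13, a protease inhibitor, and Lrrc7, a postsynaptic protein, each had a peak at 8.33, with FDR values of 21.3%, 23.5% and 23.5%. Of 6 genes with a peak at the next value, 9.26, the first by symbol was Cd99l2, with an FDR of 19.4%. Spink13 also held a later segment of only 104 bp at a fold of 30.55, so a host with 1 of the weakest peaks could carry a strong one as well.

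The longest peaks were all of above median fold. Plxdc2, a plexin domain gene, had a peak of 3904 bp in intron 1 with a fold of 28.7. LOC501110 followed with 3884 bp and a fold of 38.0, and its nearest gene was the glutathione transferase gene Gsta1. Hs3st2, a heparan sulfate sulfotransferase gene, had a peak of 3829 bp in its only intron with a fold of 31.5. The peak of Vom2r55 was 3721 bp long, and that of Cpq, a carboxypeptidase gene, was 3717 bp with a fold of 34.3. The list holds no peak above 4000 bp, so these lie close to the longest length it allows.

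Some hosts were next grouped by gene symbol into 13 lists, and most hosts fell in none. A class named below stands for its listed genes, which are not all genes of that class. Each list is described by its share of the 1247 peaks, of the intronic L1_Rn peaks and of all 4546 intronic peaks. The last include the L1_Rat1 peaks. The largest list was neuronal adhesion and axon guidance, with 24 host genes and 70 peaks (5.61%, against 5.54% of L1_Rn and 4.69% of all intronic peaks). Its leading hosts after Cntn4 were the neurexin gene Nrxn3 (7 peaks, folds 13.9 to 31.5), the netrin receptor gene Dcc (5 peaks, 20.4 to 31.5) and Cntnap5b (5 peaks, 9.26 to 23.15). Neurotransmitter receptors held 16 hosts and 49 peaks (3.93%, against 3.48% of L1_Rn and 3.37% of all). Among them were the glutamate receptor genes Grik1 (8 peaks, 13.0 to 30.55) and Grm8 (6 peaks, 22.2 to 28.7) and the GABA receptor subunit gene Gabra3 with 4 peaks. The shares of both lists lay within the counting interval of those for L1_Rn.

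The list of cyclic nucleotide and kinase signalling genes held 17 hosts and 48 peaks, 3.85% (2.92 to 5.07%) of the L1_Rat1 set. Its share was 2.27% (1.70 to 3.02%) of intronic L1_Rn and 3.61% of all intronic peaks. Kinase genes such as Erbb4 and Vrk2 were not in it, so these are not shares of all kinases. Prkg1 and Dgkb supplied 10 and 9 of the 48, and the adenylate cyclase gene Adcy8 and the phosphoinositide kinase gene Pik3c2g followed with 4 each. Transporters held 20 hosts and 45 peaks (3.61%, against 2.67% of L1_Rn and 2.60% of all), led by the mitochondrial carrier gene Slc25a21 with 6, and by Abca13, the multidrug transporter gene Abcb1b and the zinc transporter gene Slc39a12 with 4 each. Ion channels held 11 hosts and 23 peaks (1.84%, against 2.07% of L1_Rn and 1.74% of all), of which Kcnh8 had 10 and the cation channel gene Trpc5 had 3 at a single fold of 37.0. Cadherins held 8 hosts and 21 peaks (1.68%, against 2.32% of L1_Rn and 1.72% of all), with Cdh10 (5 peaks, 14.8 to 28.7), the catenin gene Ctnna2 (4 peaks), Cdh6 and Pcdh9 in front.

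The lists of sperm tail, cilia, meiosis and germ cell genes held few of the peaks, as they did for L1_Rn. Sperm tail and cilia genes held 8 hosts and 21 peaks (1.68%, against 2.32% of L1_Rn and 1.94% of all). The sperm tail gene Stpg2 had 7 peaks from 5 called peaks, with folds of 22.2, 33.3 (4 peaks, from more than 1 called peak), 30.55 and 18.5. Ttc29 had 5 peaks from 13.0 to 25.0, the axoneme gene Spag16 had 3 from 13.0 to 23.15, and both peaks of Ift57 were at 42.6. Genes of meiosis and germ cells held 5 hosts and 9 peaks (0.722%, 0.380 to 1.37%), against 0.756% of L1_Rn and 1.78% (1.44 to 2.21%) of all intronic peaks. These included Ddx4, the germ cell RNA helicase, and Sycp1, a synaptonemal complex protein, with 2 peaks each and folds between 21.3 and 23.15, and the Tudor protein gene Tdrd7 with 2 peaks at 29.6. The listed chromatin regulators held 10 peaks (0.802%, against 0.957% of L1_Rn and 0.946% of all) in 3 hosts. These were the coactivator gene Ncoa1 (5 peaks, 20.4 to 39.8), the germline silencing gene Morc1 (3 peaks, 21.3 to 40.7) and Phf14 (2 peaks, 17.6 and 19.4).

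Drug- and steroid-metabolising enzymes held 10 hosts and 20 peaks, 1.60% (1.04 to 2.46%) of the set, against 1.21% of intronic L1_Rn. Their share of all intronic peaks was higher, at 3.26% (2.78 to 3.81%). Of these 148 intronic peaks, 71 lay in the transcript of Sult1c2a and 29 in that of Cyp2c7. How the shares compare without these transcripts was not tested. Sult1c2a led with 4 peaks from 14.8 to 25.0, before the cytochrome P450 gene Cyp3a9 with 3. Chemosensory receptors held 13 hosts and 28 peaks (2.25%, against 2.72% of L1_Rn and 2.62% of all), with Vom2r4 and Vom2r60 at 6 each. The olfactory receptor gene Or2a7, with 4 peaks, was not in this list, so these are not shares of all chemosensory receptors. The ubiquitin system held 11 hosts and 21 peaks (1.68%, against 1.71% of L1_Rn and 1.56% of all), led by the ubiquitin ligase gene Herc2 with 6 peaks from 22.2 to 37.0. The listed zinc finger proteins held 4 hosts and 12 peaks (0.962%, against 0.705% of L1_Rn and 0.726% of all), of which Zfp317 and Zfp37 had 4 each. Across the 13 lists the log2 median fold ran from 4.25 (zinc finger proteins) to 4.70 (cyclic nucleotide and kinase signalling). The intervals of these extremes overlapped.

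L1_Rat1 peaks were intronic as often as L1_Rn peaks over the whole list, but the share varied between chromosomes. The intronic share was 16.2% (15.4 to 17.1%) for L1_Rat1, 16.3% for L1_Rn and 17.9% for RNHAL1. By number of intronic L1_Rat1 peaks, chromosome 1 led with 161, before chromosome 2 with 123 and chromosome 4 with 121, and chromosomes 12 and 19 had 11 and 9. The intronic share of L1_Rat1 peaks was 26.8% on chromosome 16, 8.89% on the X chromosome and 7.76% on chromosome 19. The shares of L1_Rn on these chromosomes were similar, at 22.8%, 9.06% and 9.05%. On chromosome 12 it was 50.0%, but of only 22 peaks. On chromosome 8 it was 8.81% (6.21 to 12.4%) for L1_Rat1 and 16.4% (13.1 to 20.3%) for L1_Rn. With peaks less than 6000 bp apart counted once, these became 10.5% (6.88 to 15.6%) and 17.1% (12.7 to 22.6%), and the intervals overlapped.

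L1_Rat1 made up 27.4% (26.2 to 28.7%) of intronic and 22.9% (22.4 to 23.4%) of intergenic peaks. Some stretches of the genome are crowded with peaks. Outside windows of 1 Mb with 50 or more peaks, the shares were 28.7% (27.4 to 30.1%) and 28.3% (27.7 to 28.9%), and the intervals overlapped. Such windows held only 12 of the 1247 intronic L1_Rat1 peaks. How many L1_Rat1 copies the introns of the genome hold was not analysed here, so none of these shares is an enrichment over the genome.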

How the data were processed

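According to the study's methods and the submitters' processing notes, the authors mapped trimmed reads to rn5 with Bowtie2, keeping unique alignments without duplicates, called peaks in each HILS1 ChIP replicate against the input with MACS, intersected both peak sets with bedtools, kept regions of 100 to 4000 bp and annotated them with HOMER. The deposited fold enrichment is a linear ratio over the MACS background. The deposited score rises with the significance MACS gave a called peak, and the deposited FDR is in percent. From which replicate these values were taken is not given in the sources used here. A called peak listed in several segments has 1 value for them all. Unique alignment can lower the signal on nearly identical L1 copies, which was not tested.

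Peaks were selected by annotation and compared with intergenic L1_Rat1 and intronic L1_Rn peaks in Python 3.11.15 (pandas 2.3.3, scipy 1.17.1). Shares have 95% Wilson intervals, medians have order-statistic intervals, and differences of medians combine both medians' bounds (Newcombe). The interval functions were tested on simulated counts and on independent draws from the distinct log10 lengths of intronic L1_Rat1 and L1_Rn peaks. Tied folds and segments that share 1 value were not covered by that test. The joining of peaks into runs was tested on a small made-up list. Segments of a called peak are not independent, so intervals are too narrow. Distances are absolute, to the nearest start site that HOMER lists. Host genes were named from the list for 1151 peaks and from RefSeq transcript accessions for 87. Named were the 10 genes and 5 introns with most peaks (ties for introns included), the 5 peaks at each end of fold and distance, the 5 longest, up to 4 hosts per gene list and the qPCR region, except 1 gene that is not reported here. The peak set, the comparisons and the gene lists were chosen with earlier results of these data known.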

Additional observations from a re-analysis of the deposited data

How the results depend on the processing

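No paired analysis was possible because the list holds 1 value per peak and none per replicate, and for the same reason no replicate could be left out. Of 71 values under 8 alternatives, 61 counted as unchanged and 10 moved. Unchanged meant lying within the interval of the reported value. The host count has no interval, so a wider limit, set as a ratio to the reported count, was used for it. Its values ran from 490 to 543. With 1 peak per host or nearest gene, the median distance was 62115 bp, the intronic share of L1_Rat1 20.6% and the share with the host as nearest gene 76.4%. The log2 fold difference from intergenic L1_Rat1 was then -0.052 (-0.107 to -0.052), opposite in sign to the reported value. This setting kept the highest-scoring peak of each host transcript for intronic peaks, but of each nearest start site for intergenic peaks, so the units differ. It gave a log10 length difference from intronic L1_Rn of -0.148 in place of -0.118. The log10 length difference was -0.146 with the longest segment of each called peak and -0.162 with peaks less than 6000 bp apart counted once, which also gave a log2 fold difference of 0.056 from intergenic L1_Rat1. The log2 fold difference from intronic L1_Rn was -0.28 with FDR values of at most 10% and -0.28 with folds of at least 16. The host count was not run with 1 peak per host. After the data were seen, the difference in distance from intronic L1_Rn was recomputed with 1 peak per host transcript and turned from -16131 to 1189 bp. Chromosome shares with close peaks counted once were also added then and stayed within their intervals. Folds move in steps, so a log2 difference of medians near 0.05 is the smallest the list can show here.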
